A study of Rattus norvegicus and Ovis aries with 113 samples.

Results

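The ADAM (a disintegrin and metalloproteinase) and ADAMTS (ADAM with thrombospondin motifs) genes were taken as all genes whose upper-cased symbol is ADAM or ADAMTS followed directly by a digit, so that the ADAMTS-like genes are left out. The rule found 49 of the 38675 genes in the rat table, 30 of them ADAM and 19 ADAMTS. In the sheep table it found 33 of 31304 genes, 14 ADAM and 19 ADAMTS. Together these are 82 of 69979 gene entries. All 33 sheep symbols also occurred in rat. The other 16 rat members, all of the sperm group named below, were analysed in rat only.

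ADAM proteins sit in the cell membrane, and several of them cut the outer part off other membrane proteins, among them the amyloid precursor protein, Notch and tumour necrosis factor. Others have lost the protease and serve as adhesion proteins, among them ADAM11, ADAM22 and ADAM23, which hold the secreted LGI proteins at the synapse. A large rodent group is made in the testis. Some members of that group are carried on the sperm surface and needed there for passage through the female tract and for binding to the egg coat. ADAMTS proteins are secreted, and they cut proteoglycans of the extracellular matrix, procollagens, cartilage oligomeric matrix protein (COMP) or von Willebrand factor. ADAMTS1 is known from the ovary, where it cuts versican around the oocyte at ovulation, and ADAMTS4 and ADAMTS5 cut the brevican and aggrecan of the brain's matrix.

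The study measured gene counts by RNA sequencing in 113 libraries to set brain beside reproductive samples in 2 mammals, with no treatment in any group. From 5 post-pubertal male sheep (687, 688, 690, 694 and 699) it took sperm and 10 brain regions of the same hemisphere: prefrontal, frontal, motor, posterior parietal, visual and entorhinal cortex, hippocampus, basal ganglia, pons and cerebellum. From Sprague Dawley rats it took whole brain and sperm, harvested as seminal fluid, of 15 males and whole brain and ovaries of 14 females, so that each rat tissue is 1 library per animal. RNA extraction and library kits differed between the species (TRIzol and Kapa in sheep, Zymo and Watchmaker in rat), so species and preparation cannot be told apart. Each library is a mixture of cells, and fewer cells of a type and less RNA per cell cannot be told apart in it.

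Library totals ranged from 13.7 to 65.1 M counts (M, 1000000) in sheep sperm and likewise from 13.7 to 65.1 M in rat sperm, and from 38.2 to 119 M in rat brain. Levels are counts per 1000000 (CPM) of a library total scaled by the trimmed mean of M values (TMM), given as mean ± SD over libraries, and p-values measure only the spread between these animals' samples. Lists of marker genes were summed to check the labels. The 6 neuron genes summed to 3926 to 5324 CPM in male rat brain and 1.05 to 16.7 CPM in rat sperm, and the 12 late spermatid genes to 44.8 to 56.5 CPM in male rat brain and 278 to 25606 CPM in rat sperm. Sheep sperm held 220 to 7793 CPM of the spermatid list, but also 12798 to 141430 CPM of the 8 neutrophil genes and 4440 to 83151 CPM of the 7 squamous epithelium genes in the table, so markers of other cell types were abundant in the libraries labelled sheep sperm. Rat brain libraries 1 and 22 (female) and 4 (male) gave 54.0 to 86.9% of their counts to ribosomal RNA genes, against 2.39 to 35.3% in the other 26; without them no named member changed its call. Rat sperm libraries 16 and 17 held 375 and 358 genes at 1 to 5 counts, library 7 held 663 and the other 12 held 3532 to 6339.

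Of the 49 rat members, 33 averaged at least 1 CPM in sperm, 30 in the brain of either sex and 26 in ovary. By group mean, 21 members were highest in sperm, 18 in ovary, 7 in female brain and 3 in male brain. In sheep, 17 of 33 members reached 1 CPM in sperm and 21 to 24 did so in each brain region. The plot of mean rat levels shows the sperm group in sperm, the LGI-binding ADAMs in brain, and most sheddases in ovary.

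**Figure D1:**
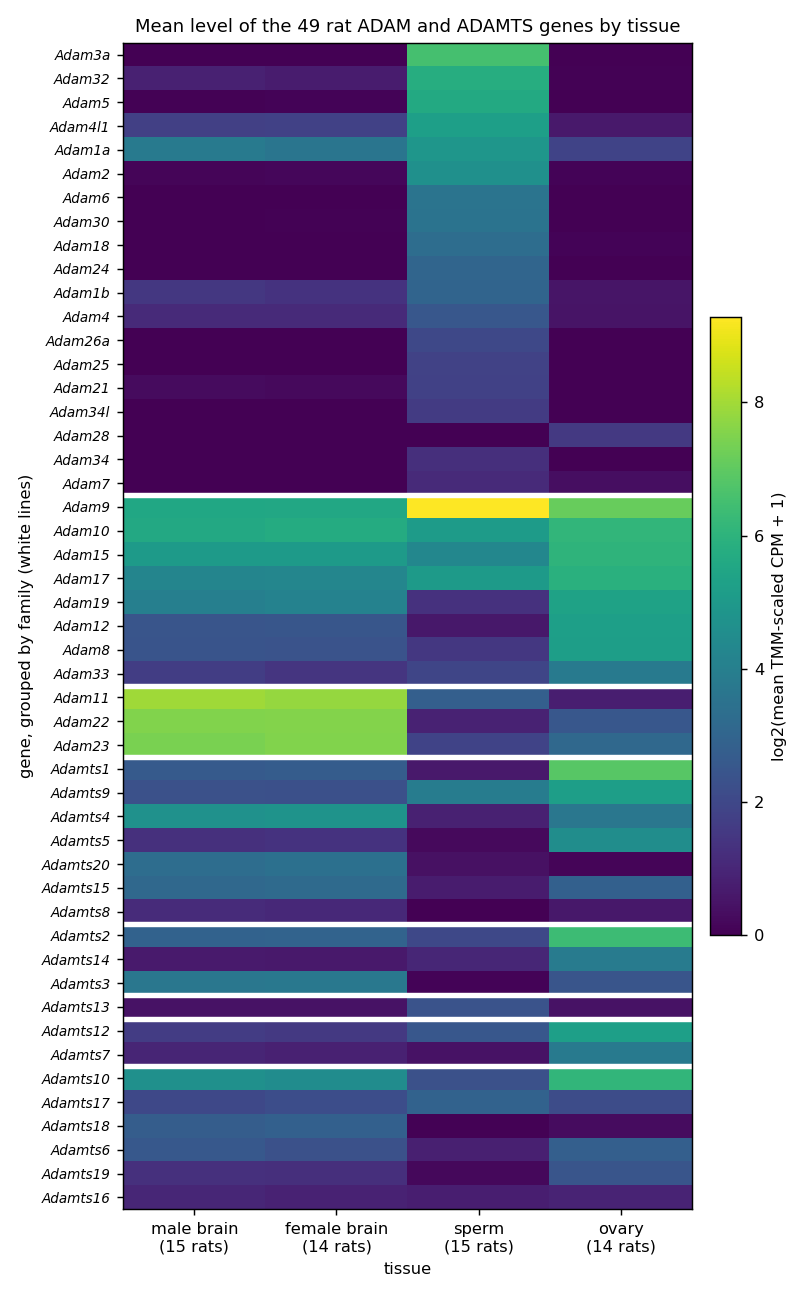
Mean level of each rat member in male brain, female brain, sperm and ovary, as colour on the scale log2(mean TMM-scaled CPM + 1), with white lines between the families. Adam11, Adam22 and Adam23 are bright in both brain columns and dark in sperm and ovary, Adam9 is brightest in sperm at a mean of 623 CPM, and the sperm group at the top is bright mainly in sperm, with Adam1a also visible in brain at a mean of 12.8 CPM in males and Adam28 in ovary at 1.90 CPM.

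A member was called where edgeR's quasi-likelihood test gave a Benjamini-Hochberg adjusted p below 0.05 over all genes and a log2 change in either direction of at least 1. In rat sperm against male brain, 36 members passed the low-count filter, 11 were higher and 18 lower, where 27.7% of all genes tested were higher and 31.5% lower. The median log2 change of these members was -1.04, and that of all genes was -0.03. With the animal as a block, since brain and sperm came from the same rats, 5 members were higher and 20 lower. Of all 20480 genes tested, 5663 were higher and 6448 lower without the block, and 4384 and 7541 with it. In rat ovary against female brain, 17 of 35 members were higher and 12 lower, beside 27.7% and 29.2% of all genes, with a median of 0.61 among members and 0.02 among all genes. In ovary against sperm, which share no animal, 24 of 38 were higher and 11 lower, beside 27.9% and 22.9% of all genes. The median was 2.27 among members and 0.12 among all genes.

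Between female and male rat brain none of 36 members was called by edgeR, where 0.0583% of all genes were. The median log2 difference of the members was -0.01, 3 of them had an unadjusted p below 0.05, and DESeq2 also called 0, with 5 of 49 at that unadjusted p. Brain values of the 2 sexes are therefore given together below where only a level is described.

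The sperm and epididymal ADAMs were the largest group, with 19 rat genes. Only 6 of them passed the low-count filter in sperm against brain, and all 6 were higher in sperm: Adam18, Adam32, Adam4l1, Adam4, Adam1b and Adam1a. The other 13 had too few libraries with enough counts, and without the filter all 19 were called higher, where 36.6% of all genes were. A gene that is near 0 in brain enters such a test only through sperm, so this count describes the group and supports nothing more. Along the genome their median span was 5.99 kb, against 70.6 kb for the 8 sheddases. Both ranges were wide, 2.45 to 110 kb and 10.5 to 327 kb, so not all of the group are short genes. Of the 19, 10 lie on rat chromosome 16 of the GRCr8 build.

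Adam3a, the rat gene of cyritestin, a surface protein needed for sperm to bind the egg coat, ranged from 0 through a median of 2.94 to 637 CPM over the 15 sperm libraries. No brain library went above 0.0786 CPM and no ovary above 0.0916 CPM. Adam5, a catalytically inactive testis member, ranged from 0 through a median of 2.29 to 385 CPM in sperm and reached 0.121 CPM in male brain. Adam32, another testis member, ranged from 0 through a median of 4.8 to 408 CPM in sperm and from 0.142 through 0.767 to 1.72 CPM in male brain, and was called at a log2 change of 6.39 ± 1.12 (SE; edgeR adjusted p = 6.03e-06). With the animal as a block its log2 value was 2.58 and it was no longer called. In all 3 genes the lowest sperm library was at 0, at or under the brain values, and the highest lay far above them. The 0 was library 16 for Adam3a and library 17 for Adam5 and Adam32, the 2 sperm libraries with the most genes at 0. The next lowest Adam3a library, library 11, held 0.114 CPM, above every brain and ovary. Library 11 held 0.0914 CPM of Adam5 and 0.434 CPM of Adam32, within the male brain ranges.

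Adam18 was the member of this group that separated the tissues in every animal. Its sperm values ran from 0.853 through a median of 6.22 to 27.9 CPM, and its male brain values from 0 to 0.0679 CPM, so the groups did not overlap. The log2 change was 9.05 ± 0.69 (edgeR adjusted p = 2.58e-13). It lies on chromosome 16 from 74054974 to 74127861, at the end of an unbroken row of members, Adam9, Adam32, Adam5, Adam3a and Adam18, with gaps of 0.739 to 10.6 kb and no other protein-coding gene starting in them.

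The fertilin genes had a level in brain as well. Adam1a, a partner of the other sperm ADAMs in the endoplasmic reticulum, ranged from 1.96 through 4.93 to 200 CPM in sperm and from 9.69 through 12.2 to 17.1 CPM in male brain. Its mean was higher in sperm (28.1 ± 54.8, n = 15) than in male brain (12.8 ± 2.13, n = 15), with a log2 change of 1.42 (edgeR adjusted p = 0.0301), while its sperm median lay below the lowest brain library. The direction of Adam1a turned to -1.33 without libraries 3, 7, 13 and 14, described below, and with the animal as a block it stood at -0.54 and was not called. In ovary, Adam1a fell to 1.88 to 4.18 CPM, below every female brain library, with a log2 change of -2.07. Adam1b, fertilin alpha, was higher in sperm by 2.19 ± 0.76 on the log2 scale (edgeR adjusted p = 0.0101), again with overlapping ranges, and it too turned, to -1.21 without those 4 libraries and to -0.43, not called, with the block. Adam2, fertilin beta and the partner of both, ran from 0 through 1.08 to 182 CPM in sperm and up to 0.865 CPM in brain, and it was not tested. Adam1b overlaps Tmem116 in the annotation, and without the strand setting of the counting its brain value cannot be assigned to either gene.

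The testases, a testis subgroup of rodents, were at or near 0 outside sperm. Adam24 (testase 1), Adam25 (testase 2), Adam26a (testase 3), Adam34 (testase 4) and Adam34l had 0 counts in all 14 ovaries, and their sperm means were at least 2183-fold, 773-fold, 934-fold, 419-fold and 630-fold higher, taking 3 counts over all the ovaries as the floor. Adam24 reached 74.8 CPM in the highest sperm library and 0.171 CPM in the median one. The sperm means rest on few libraries: 96.2 to 98.5% of the summed CPM of these 5 genes came from libraries 3, 7, 13 and 14.

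Those 4 libraries carried most of the group. They are the ones with the highest mean log2 level of the late spermatid list, and in 16 of the 19 sperm group members they were also the 4 highest libraries, as they were in 2 of the other 30 members and in 2760 of the 16446 genes that averaged 1 CPM or more in sperm (16.8%). The summed CPM of the 19 genes was 659 in library 3, 1297 in library 7, 320 in library 13 and 2663 in library 14. In the other 11 libraries the sum ran from 8.75 to 65.5 CPM. For Adam3a the 4 libraries held 89.0 to 637 CPM and the other 11 at most 12.4 CPM; for Adam2 they held 24.4 to 182 CPM and the others at most 4.47 CPM. The late spermatid list summed to 2627 to 25606 CPM in the 4 libraries; library 10 had a list sum of 5224 CPM and a sperm group sum of 20.1 CPM. The part of germ cell content in these differences was not tested.

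**Figure D2:**
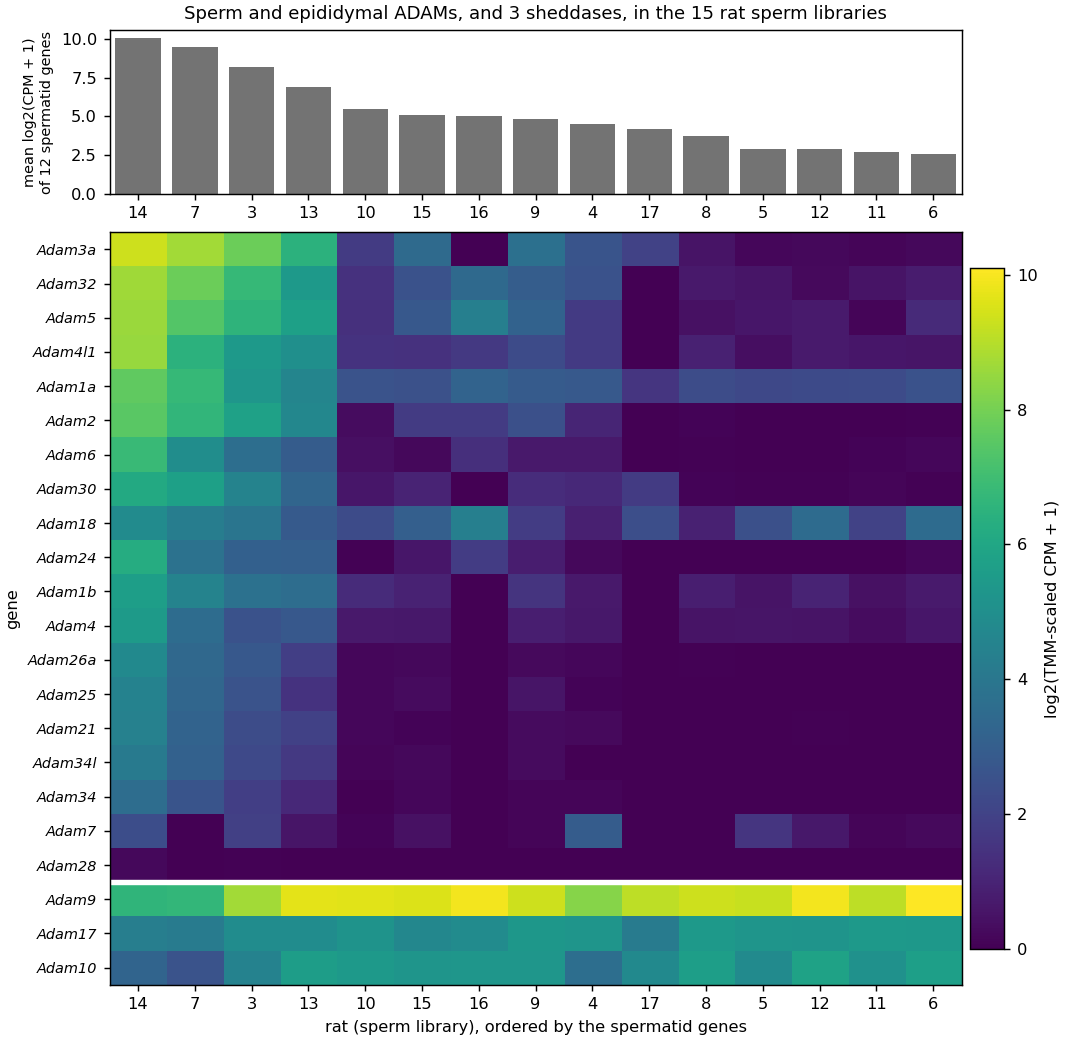
The 15 rat sperm libraries, ordered by the mean log2(CPM + 1) of 12 late spermatid genes (bars, upper panel), with the level of each sperm and epididymal ADAM and of Adam9, Adam17 and Adam10 below as colour on the scale log2(TMM-scaled CPM + 1). Libraries 14, 7, 3 and 13 on the left are bright for most of the sperm group, Adam18 is above 0 in every library, and Adam9 is lowest in libraries 7 and 14.

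Without the 4 libraries, a choice made after seeing the data, 8 members were higher and 21 lower in sperm against male brain. Of all 20715 genes tested in that setting, 4887 were higher and 7937 lower. Adam4 then had a log2 change of -1.25 and Adam4l1 of -0.72, both higher with all libraries, at 2.36 and 4.24; with the animal as a block they stood at -0.44 and 0.17 and were not called. Adam1a and Adam1b turned as well, as given above, and Adam32 stayed higher at 1.89. The calls lost with the block were those of Adam1a, Adam1b, Adam4, Adam4l1, Adam32 and Adamts17 (0.96), and Adam9, Adam18, Adamts9, Adamts12 and Adamts13 kept theirs under both settings. Adam18 did not need the 4 libraries: libraries 6, 12 and 16 held 10.4, 10.7 and 19.3 CPM of it. Adam7, which is made in the epididymis and passed to sperm, was highest in library 4 at 6.69 CPM and at 0 in library 7. The epididymis list summed to 11.0 CPM in library 4 and was highest in libraries 14, 7 and 3, at 278, 179 and 54.6 CPM. Libraries 14 and 3 held 4.27 and 2.73 CPM of Adam7. The ovary values of Adam7, 0.108 to 0.612 CPM, all lay above the highest brain value of 0.0949 CPM. Adam28, known from the epididymis and from lymphocytes, was not a sperm gene here: it reached 0.164 CPM in sperm and had 1 count in all male brains, whereas ovaries held 0.522 through 1.48 to 4.65 CPM, above every female brain at 0 to 0.0335 CPM. Its 1754 ovary counts stood against 2 in female brain, a ratio with a counting interval (95%, exact, for counting error only) of 204 to 6109, and edgeR called it higher (adjusted p = 4.32e-15).

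Adam4 and Adam4l1 moved together and resemble each other in their promoters. They lie 49.2 kb apart on chromosome 6, both inside the annotated span of Cox16, with no other protein-coding gene starting between them. The windows of 250 bases before to 50 bases after each start, from RefSeq on GRCr8, are shown because reads of near copies may be shared in counting, although most of a window lies before the start: 246 of 261 aligned bases were identical (94.3%). Both are on the minus strand, Adam4 at chr6:106856930-106857229 and Adam4l1 at chr6:106805309-106805608, and capitals mark the longest stretch of 58 identical bases.
Adam4: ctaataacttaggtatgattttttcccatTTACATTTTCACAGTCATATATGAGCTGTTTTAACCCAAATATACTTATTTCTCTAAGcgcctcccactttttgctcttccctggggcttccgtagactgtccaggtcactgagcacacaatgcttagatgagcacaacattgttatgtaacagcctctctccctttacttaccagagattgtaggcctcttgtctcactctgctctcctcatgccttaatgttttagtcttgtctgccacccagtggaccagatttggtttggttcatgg
Adam4l1: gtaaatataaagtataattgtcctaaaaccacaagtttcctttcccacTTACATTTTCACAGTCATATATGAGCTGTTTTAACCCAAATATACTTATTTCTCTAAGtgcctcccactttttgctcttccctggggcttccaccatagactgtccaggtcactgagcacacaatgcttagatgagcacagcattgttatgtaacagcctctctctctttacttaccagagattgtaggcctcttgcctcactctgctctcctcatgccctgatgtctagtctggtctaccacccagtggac
The alignment held 11 mismatches and 4 gapped bases, and whether reads are shared between the genes was not tested.

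Promoter windows were found for 30 of the 49 rat members, 9 of the sperm group and 21 others. The sperm group windows had a median GC content of 42.7%, the other members 68.0% and all 27457 windows 52.3%. The letters GGGCGG, searched on both strands, stood in 0 of the 9 sperm group windows, in 14 of the 21 others (66.7%) and in 34.9% of all windows. The letters TATAAA stood in 5 of the 9 (55.6%), in 3 of the 21 (14.3%) and in 14.3% of all. TGACGT, the core of the site of cAMP-responsive factors such as CREM, stood in 2 of the 9, in 1 of the 21 and in 8.22% of all, and its full form TGACGTCA, which contains it, in Adam26a among the members and in 1.91% of all windows. These are matches of letters in these windows and say nothing of binding.

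Windows of 2 testases, which were at 0 in ovary, and of a member high in brain and a member high in ovary are shown for that contrast in base composition and motifs. Adam26a lies at chr16:55336173-55336472 on the plus strand, with TGACGTCA and TTTATA (the reverse complement of TATAAA) in capitals. Adam24 lies at chr16:58287686-58287985 on the minus strand, with TATAAA in capitals. Adam22, an LGI receptor high in brain, lies at chr4:26670862-26671161 on the plus strand, with CCGCCC (the reverse complement of GGGCGG) in capitals. Adamts1, high in ovary, lies at chr11:38427335-38427634 on the minus strand, with GGGCGG and TATAAA in capitals. The windows of Adam26a and Adam22 begin at a start other than the outermost start of the gene.
Adam26a: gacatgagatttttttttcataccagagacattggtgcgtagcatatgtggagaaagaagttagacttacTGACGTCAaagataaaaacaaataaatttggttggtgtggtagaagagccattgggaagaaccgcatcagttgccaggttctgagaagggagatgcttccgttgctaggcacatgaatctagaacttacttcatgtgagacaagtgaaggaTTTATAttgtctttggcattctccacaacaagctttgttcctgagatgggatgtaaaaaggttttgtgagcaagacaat
Adam24: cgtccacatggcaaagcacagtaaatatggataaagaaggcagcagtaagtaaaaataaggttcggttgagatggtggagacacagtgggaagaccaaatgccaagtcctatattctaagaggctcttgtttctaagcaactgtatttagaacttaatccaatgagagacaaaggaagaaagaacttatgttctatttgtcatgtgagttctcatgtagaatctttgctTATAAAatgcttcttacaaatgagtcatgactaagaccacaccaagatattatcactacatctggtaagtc
Adam22: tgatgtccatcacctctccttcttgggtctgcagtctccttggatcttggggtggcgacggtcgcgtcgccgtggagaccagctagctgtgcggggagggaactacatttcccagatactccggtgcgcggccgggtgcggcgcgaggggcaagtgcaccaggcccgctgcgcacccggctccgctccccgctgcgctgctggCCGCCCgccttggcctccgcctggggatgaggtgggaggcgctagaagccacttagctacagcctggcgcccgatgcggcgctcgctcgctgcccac
Adamts1: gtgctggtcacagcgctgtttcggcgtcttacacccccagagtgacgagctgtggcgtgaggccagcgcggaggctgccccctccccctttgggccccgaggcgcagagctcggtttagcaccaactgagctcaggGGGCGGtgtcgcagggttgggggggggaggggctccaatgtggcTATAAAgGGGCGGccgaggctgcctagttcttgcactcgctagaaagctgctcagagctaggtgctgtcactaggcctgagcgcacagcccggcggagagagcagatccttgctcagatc
The Adam22 window holds 69.3% GC and 1 match of GGGCGG, the Adamts1 window 65.0% GC and 2 matches, and the testase windows 40% and 37.3% GC and no match.

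Genes that fold or stabilise sperm ADAMs were followed from a list of 7, of which 6 were in the rat table and tested. In rat sperm, 5 of the 6 were higher than in male brain and none was lower, with a median of 4.39. Genes near 0 in brain, such as Tex101, entered this test only through sperm, so the count describes the list and supports nothing more. Tex101, a germ cell surface protein that ADAM3 needs, stood at 5.19 to 119 CPM in sperm and at most 0.0782 CPM in male brain, a log2 change of 12.31. The chaperones Clgn (calmegin) and Calr3 (calsperin) and the disulfide isomerase Pdilt were higher by 4.13, 4.65 and 6.19 on the log2 scale, each with sperm libraries at 0 and others above 100 CPM. Ace, angiotensin-converting enzyme, whose germ cell form ADAM3 needs to reach the sperm surface, was higher by 1.78, and Ly6k had a log2 change of 0.01.

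The LGI-binding ADAMs were brain genes in both species. In rat, Adam22, the synaptic receptor of LGI1, ranged from 120 to 234 CPM over the 29 brains, from 0 through a median of 0.708 to 2.2 CPM in sperm and from 2.78 through 4.84 to 7.02 CPM in ovary. No sperm or ovary library came near the lowest brain. Its log2 change was -7.63 ± 0.35 in sperm against male brain and -5.29 ± 0.15 in ovary against female brain (edgeR adjusted p = 9.97e-19 and 1.38e-24). Adam11 kept a level in sperm of 2.87 through 5.50 to 15.1 CPM, above all ovaries at 0.361 to 1.51 CPM. Against brain it was lower by a log2 change of -5.24 in sperm and -8.27 in ovary, and ovary was lower than sperm by -3.10 ± 0.30 (edgeR adjusted p = 1.51e-10). Adam23, the third of the group, ranged from 136 to 218 CPM in brain, from 0 through 1.03 to 9.41 CPM in sperm and from 4.51 through 7.05 to 12.8 CPM in ovary, with log2 changes of -5.83 and -4.54 against brain.

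Their ligands moved the same way. All 4 LGI genes were lower in rat sperm and in rat ovary than in brain, with medians of -6.70 and -4.76. Lgi1, the ligand bound by ADAM22 and ADAM23, kept 0 to 24.7 CPM in sperm (log2 change -1.94) and at most 0.173 CPM in ovary (-9.54). Neuron markers were low in the same samples: the neuron list summed to 8.96 to 36.0 CPM in ovary and 1.05 to 16.7 CPM in sperm. The part of neuron content in these differences was not tested.

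Among the 8 membrane sheddases, Adam9 alone was higher in rat sperm, 3 were lower and 4 were not called. Adam9, a sheddase with broad expression, ranged from 95.7 through 645 to 1098 CPM in sperm and from 41.8 through 45.1 to 50.6 CPM in male brain, so every sperm library lay above every brain. The log2 change was 3.87 ± 0.24 (edgeR adjusted p = 2.72e-15). Ovaries lay between, at 89.8 through 136 to 210 CPM, and were lower than sperm by a log2 change of -2.18 with overlapping ranges. Adam9 did not follow the sperm group it neighbours on chromosome 16: libraries 7 and 14, with the highest sperm group sums, had its lowest values, 102 and 95.7 CPM, and library 6, with a sum of 19.6 CPM, had the highest.

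Adam10 and Adam17, the main sheddases of Notch and of tumour necrosis factor, were not called in sperm. Adam17 ranged from 17.3 through 35.7 to 43.5 CPM in sperm and from 14.55 through 17.6 to 23.6 CPM in male brain; its log2 change of 0.97 (edgeR adjusted p = 1.39e-08) stayed under the size set for a call, which it passed without libraries 16 and 17 (1.04) or without libraries 3, 7, 13 and 14 (1.08). Adam10 had a log2 change of -0.42 (adjusted p = 0.0894), with 5.01 to 56.2 CPM in sperm and 25.9 to 70.1 CPM in male brain. In ovary Adam17 rose to 46.8 through 54.9 to 71.2 CPM, above every female brain (1.69 ± 0.07; edgeR adjusted p = 1.03e-19), and Adam10 had a log2 change of 0.44 and was the sheddase not called there. The other 7 sheddases were all higher in ovary than in female brain, with Adam8, a sheddase of leukocytes, at 3.15, Adam12, known from muscle and placenta, at 3.02, and Adam33 at 2.97. Adam12 ranged from 15.0 through 31.5 to 69.0 CPM in ovary and from 3.52 to 6.21 CPM in female brain, without overlap. Adam8 ranged from 2.54 to 65.3 CPM in ovary and overlapped the brain, and the 8 neutrophil genes summed to 26.7 to 227 CPM in ovary and 5.56 to 8.2 CPM in female brain; the part of these cells in the Adam8 difference was not tested. In sperm, Adam19, Adam12 and Adam8 were lower than in male brain, by log2 changes of -3.21, -2.87 and -1.10.

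Of 9 partners of ADAM10 and ADAM17, 8 were tested. In rat sperm 4 were higher and 1 lower, and in ovary 5 were higher and 3 lower than in brain. Rhbdf2 (iRhom2) and Rhbdf1 (iRhom1), which carry ADAM17 to the cell surface, were higher in sperm by 3.12 and 2.51 and in ovary by 3.86 and 1.57 on the log2 scale. Among the tetraspanins that steer ADAM10, Tspan14 was higher in both, by 1.46 and 1.19, and Tspan17 lower in both, by -3.11 and -1.75. The inhibitors moved apart between the reproductive tissues: of Timp1 to Timp4 and Reck, 4 were lower in sperm, among them Timp3, the TIMP that inhibits ADAM17 and the aggrecanases, at -4.98, and 2 were higher in ovary, Timp3 at 1.47 and Timp1 at 5.83, with Timp4 lower at -2.76.

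Of the 7 ADAMTS genes that cut proteoglycans, 6 were lower in rat sperm than in male brain and 1, Adamts9, was higher. Adamts1 ranged from 0 through 0.588 to 1.17 CPM in sperm and from 3.83 through 4.89 to 7.69 CPM in male brain, without overlap (log2 change -3.05 ± 0.40; edgeR adjusted p = 3.66e-08). Adamts4 fell further, from 16.6 through 23.1 to 38.0 CPM in male brain to 0 through 0.303 to 2.31 CPM in sperm, a log2 change of -4.85. Adamts8, Adamts20 and Adamts5 were lower by -6.67, -4.66 and -2.74. Adamts9, a versican-cleaving protease, ranged from 3.86 through 13.8 to 22.7 CPM in sperm and from 2.58 through 4.07 to 5.62 CPM in male brain, a log2 change of 1.92 with overlapping ranges.

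In ovary the same 7 genes divided, 3 higher, 3 lower and 1 not called. Adamts1 was higher in every ovary: 69.8 through 114 to 183 CPM beside 3.69 through 5.50 to 7.17 CPM in female brain, a log2 change of 4.43 ± 0.16 (edgeR adjusted p = 8.36e-22). Its neighbour Adamts5, 59.6 kb away on chromosome 11 with no protein-coding gene starting between, ranged from 6.40 through 24.9 to 40.3 CPM in ovary and from 1.20 through 1.44 to 2.2 CPM in female brain, a log2 change of 3.81. Adamts9 was higher by 3.27, at 21.3 to 66.7 CPM beside 2.32 to 5.62 CPM. Adamts20, best known from pigment cell development, was far lower: 0.0307 to 0.309 CPM in ovary beside 6.58 through 9.60 to 12.0 CPM in female brain, a log2 change of -6.66 ± 0.23. Adamts4 and Adamts8 were lower by -1.13 and -1.14 with overlapping ranges, and Adamts15 had a log2 change of -0.40. Against sperm, ovary Adamts1 was higher by 7.66 ± 0.40, the largest difference of any ADAMTS gene in these rat comparisons toward the ovary.

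Their substrates shifted as well. All 8 tested proteoglycan and link protein genes were lower in rat sperm than in brain, with a median of -7.54, and in ovary 6 were lower and 2 higher. Vcan, the versican that ADAMTS1 cuts, was higher in ovary (53.4 to 151 CPM) than in female brain (16.6 to 33.6 CPM), at a log2 change of 2.09, as was the link protein Hapln3 at 2.98. Bcan, the brain proteoglycan brevican, was lower in ovary, at 0.626 to 13.0 CPM beside 164 to 260 CPM. In these whole ovaries the 6 granulosa genes summed to 956 to 3948 CPM, the 6 theca and luteal genes to 6226 to 15224 CPM and the 6 fibroblast and vessel genes to 2236 to 5467 CPM, against 16.2 to 26.1, 0.804 to 1.35 and 55.9 to 149 CPM in female brain. Which cells carried the ADAMTS counts was not tested.

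The procollagen ADAMTS genes rose in ovary except Adamts3. Adamts2, which trims procollagen I and is mutated in dermatosparaxis, ranged from 58.7 through 78.9 to 111 CPM in ovary and from 4.53 through 6.73 to 10.5 CPM in female brain, a log2 change of 3.59 ± 0.11 (edgeR adjusted p = 4.92e-23). Adamts14 was higher by 4.62, at 4.82 through 9.61 to 39.8 CPM beside 0.122 to 0.901 CPM. Adamts3, which trims procollagen II and activates VEGF-C, was lower by -1.43, with ovaries from 1.24 to 14.8 CPM overlapping brains from 7.05 to 15.7 CPM. In sperm, Adamts3 was lower, with 53 counts over 15 libraries, 0 through 0.0244 to 0.320 CPM beside 5.79 through 12.1 to 15.6 CPM in male brain (log2 change -7.11 ± 0.58), and Adamts2 and Adamts14 were not called.

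The COMP-cleaving pair and Adamts13 filled out the pattern. Adamts12 ranged from 14.3 through 41.4 to 58.7 CPM in ovary, above every female brain at 1.29 to 3.25 CPM (log2 change 4.24), and Adamts7 from 8.28 through 12.5 to 19.3 CPM, above 0.234 to 1.11 CPM (4.03). In sperm Adamts12 was higher than in male brain by 1.21 and Adamts7 lower by -1.27. Adamts13, the liver protease that cuts von Willebrand factor, was the ADAMTS gene with the largest rise in sperm: 0.162 through 3.57 to 10.4 CPM beside 0.166 through 0.364 to 0.554 CPM in male brain, a log2 change of 3.57 ± 0.36 (edgeR adjusted p = 1.41e-10). Its range overlapped the brain, it had a log2 change of 0.12 in ovary against brain, and its span overlaps Cacfd1. Of the 6 remaining ADAMTS genes, Adamts18, an orphan protease, fell by 7.38 on the log2 scale in sperm and by 4.58 in ovary, and Adamts10, which acts on fibrillin, was lower in sperm (-2.49) and higher in ovary (1.64), each time without overlap. Adamts17 was higher in sperm by 1.20 (0.96 and not called with the animal as a block), Adamts6 and Adamts19 were lower by -2.50 and -3.12, and Adamts19 was higher in ovary by 1.70. The ADAMTS-like genes, which lack the protease, gave 1 higher and 6 lower of 7 in sperm, and 5 higher and none lower in ovary.

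In sheep, 31 members were tested in sperm against the mean of the 10 regions: 6 were higher and 13 lower, beside 33.1% and 41.1% of all genes. This fit had no animal term and pooled the spread of the 50 brain and 5 sperm libraries. Its SEs and p-values therefore do not measure the spread between sheep alone. The median log2 change was -0.86 among members and -0.42 among all genes. These directions lean on the scaling more than in rat, because TMM factors were 0.124 to 0.343 in sheep sperm, which raises its CPM against plain totals: on plain library totals, chosen after seeing the data, the median of all genes moved by -2.42, 3 members were higher and 25 lower, and ADAMTS10 and ADAMTS12 turned from higher to lower. Of all 21859 genes tested, 3249 were higher and 15084 lower on plain totals, so the member counts moved with those of all genes. With the regions of each sheep summed 8 members were lower, and with limma's voom quality weights 5 were. Of all genes 7036 were lower with those weights, and no count of all genes is given for the summed fit.

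Of the 6 higher members 3 were sheddases. ADAM8, a sheddase of neutrophils and other leukocytes, stood at 48.3, 84.7, 54.1, 499 and 18.3 CPM in the sperm of sheep 687, 688, 690, 694 and 699, and at 0.0692 through 0.383 to 0.995 CPM over the 50 brain libraries. No sperm value overlapped a brain value, and the log2 change was 8.65 ± 0.25 (edgeR adjusted p = 7.23e-35). ADAM9 stood at 51.4, 331, 235, 83.5 and 104 CPM beside 3.64 through 9.36 to 26.0 CPM in brain, again without overlap, at a log2 change of 4.17 ± 0.15. ADAM19, known from heart formation, stood at 44.3, 16.2, 7.17, 92.4 and 34.7 CPM beside 1.62 to 14.3 CPM; sheep 690 lay within the brain range, and the log2 change was 3.05, or 0.73 and not called on plain library totals.

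ADAM28 had the largest log2 change, 9.25 ± 0.47 (edgeR adjusted p = 6.22e-24), but its values were 0.373, 150, 6.27, 1.68 and 0.528 CPM in the 5 sheep, so that sheep 688 held most of it. Without sheep 688 the log2 change was 5.51. In brain ADAM28 reached 2.06 CPM in pons and had a median of 0.0379 CPM. Sheep 688 also had the highest neutrophil sum (141430 CPM) and squamous sum (83151 CPM) and the lowest spermatid sum (220 CPM) of the 5. ADAM8 and ADAM19 were highest in sheep 694, whose neutrophil sum was 27907 CPM. Sheep 694 had the highest sums of several other lists: microglia (118 CPM), oligodendrocyte (44.6 CPM), granulosa (972 CPM) and fibroblast and vessel (200 CPM). The part of blood, epithelial and other cells in these rises was not tested.

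Of the sperm group, ADAM7, ADAM18 and ADAM28 were in the sheep table. ADAM7 stood at 11.1, 0.360, 9.86, 10.4 and 0.317 CPM, above every brain library (at most 0.0904 CPM), and did not pass the low-count filter; without it the gene was called higher. ADAM18 had 23 counts in sperm, all in sheep 694 and 699, and 5 in brain, and is also called higher without the filter. The epididymis list summed to 17.6 to 25.7 CPM in the 5 sheep, a narrow range beside that of ADAM7.

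**Figure D3:**
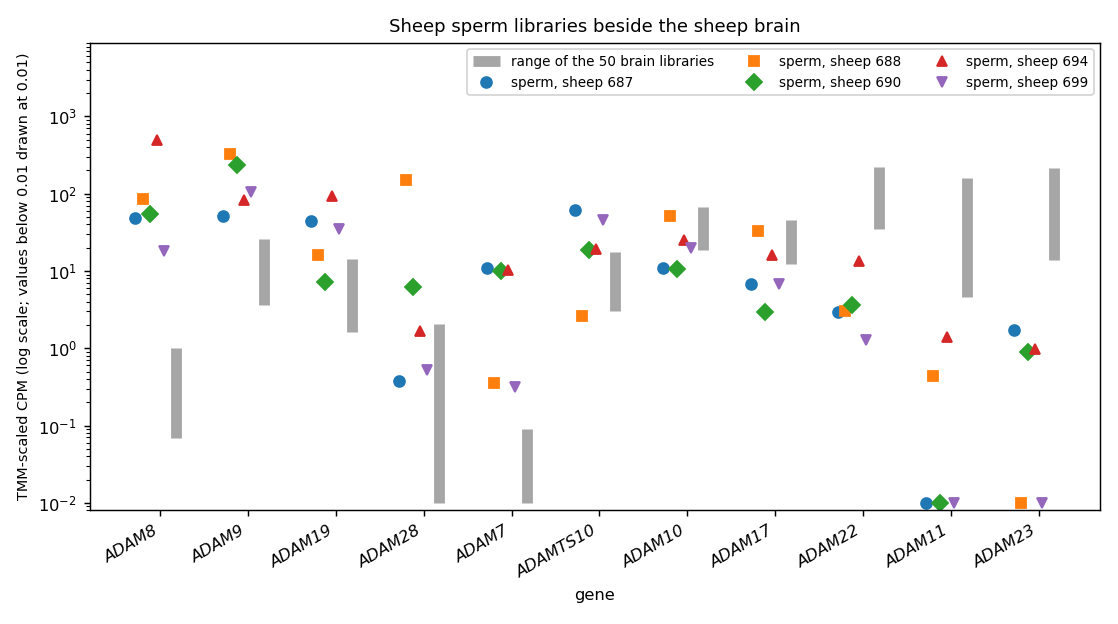
TMM-scaled CPM on a log axis of 11 members in the 5 sheep sperm libraries (coloured symbols, 1 per sheep) beside the range over the 50 sheep brain libraries (grey bars), with values below 0.01 drawn at 0.01. The 5 sperm values lie above the bar for ADAM8, ADAM9 and ADAM7, below it for ADAM22, ADAM11 and ADAM23, and reach over or into it for ADAM19, ADAM28, ADAMTS10, ADAM10 and ADAM17.

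The LGI-binding ADAMs were lower in sheep sperm too, ADAM23 and ADAM11 with the lowest log2 changes of the 31 tested members. ADAM23 stood at 1.74, 0, 0.896, 0.987 and 0 CPM beside 14.0 through 64.2 to 214 CPM in brain, a log2 change of -6.65 ± 0.54 (edgeR adjusted p = 3.65e-16). ADAM11 was at 0 in 3 sheep and reached 1.38 CPM, beside 4.65 to 159 CPM (-6.34). ADAM22 stood at 2.98, 3.02, 3.59, 13.4 and 1.27 CPM beside 35.1 to 224 CPM (-3.72). None of the 3 overlapped brain, and all 4 LGI genes were lower with them, by -6.04 to -8.35.

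ADAM10 and ADAM17 again stayed short of a call, with log2 changes of -0.51 and -0.42 and overlapping ranges; on plain library totals both were called lower. Among the proteoglycan-cleaving genes 4 of 7 were lower and none higher. ADAMTS1 had 15 counts over the 5 sperm libraries, in sheep 690 and 694, and 1.53 through 4.70 to 35.3 CPM in brain (-3.89 ± 0.78; edgeR adjusted p = 1.34e-05). ADAMTS4 was lower by -2.84, and ADAMTS20 and ADAMTS5 had log2 changes of -0.86 and -0.95 without a call; ADAMTS5 was called lower with the animal as a block and, at a lower value, without sheep 694 (-2.86), whose library held 3.16 CPM of it. With voom's quality weights ADAMTS1, ADAMTS4 and ADAMTS19 were not called. Few counts limit these values: ADAMTS18 had 4 counts over the 5 sperm libraries, ADAMTS13 had 5 and ADAMTS19 had 10. With more counts, ADAMTS10 stood at 62.0, 2.59, 18.5, 19.3 and 45.7 CPM beside 3.05 to 17.4 CPM in brain, and ADAMTS6 at 7.95, 4.97, 7.77, 7.60 and 9.09 CPM beside 0.961 to 7.07 CPM, a log2 change of 0.91. ADAMTS12 was higher by 1.65 on 40 counts, and without sheep 690 it stood at 0.99 and was not called. The inhibitors divided, TIMP1 and TIMP2 higher by 2.93 and 2.46 and TIMP3, TIMP4 and RECK lower, and 7 of the 8 proteoglycan and link protein genes were lower.

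Within the sheep brain, 26 of 31 members differed between the 10 regions by edgeR's test at a range of at least 2-fold, where 52.4% of all genes did. ADAM10, ADAM15, ADAM8, ADAMTS13 and ADAMTS14 were not called. The region fits also had no animal term, although each region came from the same 5 sheep. Against the mean of the other 9 regions, 24 members were called in at least 1 region, beside 41.9% of all genes. The cerebellum had 13 higher and 6 lower, beside 9.35% and 19.5% of all genes, so that its lower count is near the share of all genes. The pons had 6 higher and 5 lower, beside 9.66% and 9.02%. The basal ganglia had 2 higher, near the 5.54% of all genes, and 4 lower, beside 4.75%. Hippocampus, posterior parietal and prefrontal cortex had 1 call each, and the entorhinal, frontal, motor and visual cortex none. By mean level, the cerebellum was the highest region for 14 of the 33 members and the lowest for 9, and the pons the highest for 8 and the lowest for 6.

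**Figure D4:**
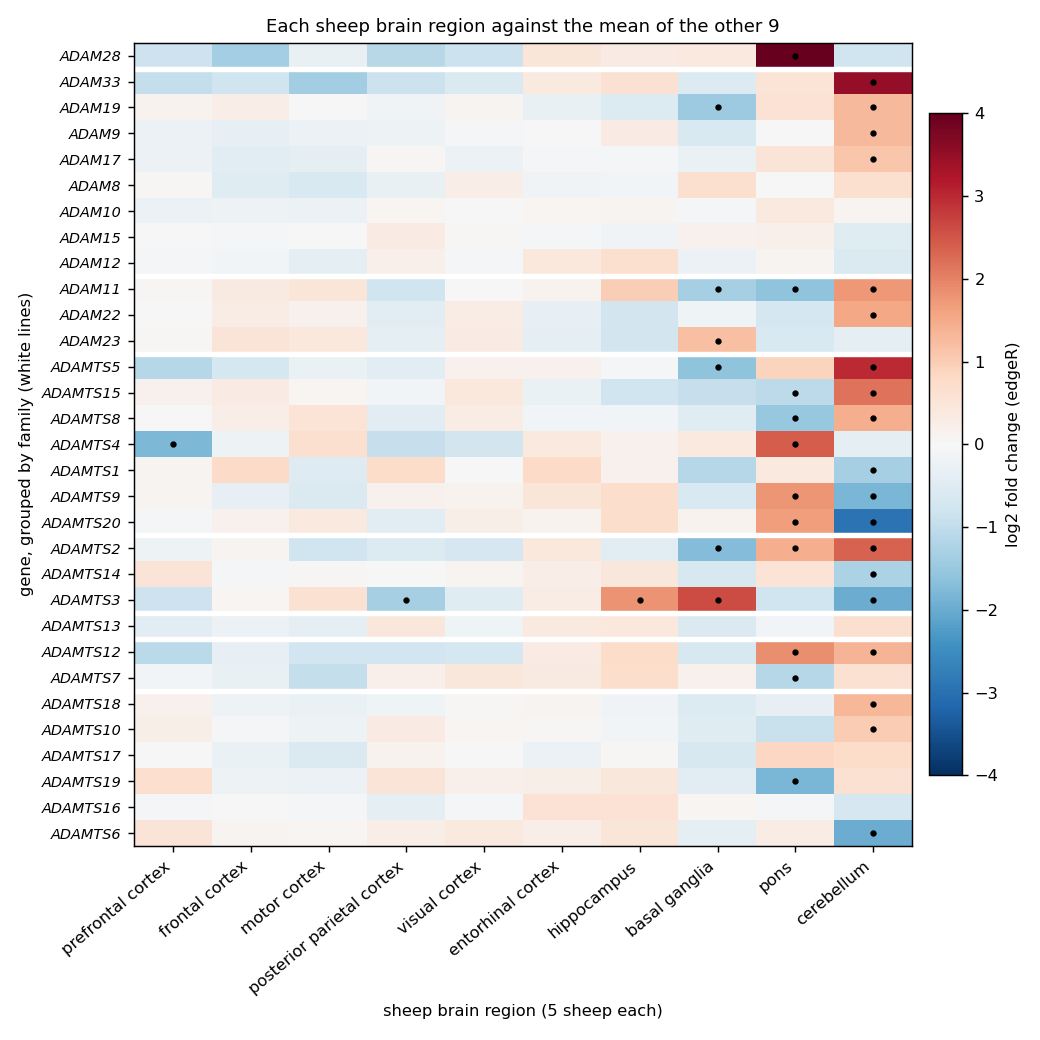
Log2 fold change of each tested sheep member in each of the 10 brain regions against the mean of the other 9 (5 sheep per region), red for higher and blue for lower, with dots where the change was called and white lines between the families. The cerebellum column carries 19 dots and the pons column 11, while 4 cortical columns carry none.

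ADAM33, a sheddase known from asthma genetics, marked the cerebellum most sharply: 5.99, 3.5, 6.06, 8.14 and 5.18 CPM in the 5 sheep, beside 0 to 1.59 CPM in the other 45 libraries. The log2 change was 3.53 ± 0.34 (edgeR adjusted p = 6.03e-12). ADAMTS5 stood at 13.8, 9.60, 11.3, 14.4 and 12.6 CPM there beside at most 5.23 CPM elsewhere, a log2 change of 2.98. ADAMTS2 and ADAMTS15 were higher by 2.35 and 2.18. Of the LGI-binding ADAMs, ADAM22 was higher in cerebellum at 169 to 224 CPM beside at most 128 CPM elsewhere (1.56), and ADAM11 by 1.72, while ADAM23 was not called there. ADAM17 and ADAM9 were higher by 1.11 and 1.30, each above all other libraries, at 38.6 to 45.2 CPM and 18.6 to 26.0 CPM. Lower in cerebellum was ADAMTS20, at 0.371, 0.133, 0.452, 0.170 and 0.231 CPM beside 0.641 to 8.44 CPM elsewhere, a log2 change of -2.96 ± 0.37 without overlap. ADAMTS6 was lower by -1.98, also without overlap (0.961 to 1.45 CPM beside 2.59 to 7.07 CPM). Cell type lists also differed there: the 5 microglia genes summed to 21.4 to 59.5 CPM in cerebellum and had medians of 150 to 269 CPM in the other regions, and the neuron genes had a median sum of 3672 CPM, beside 965 to 3333 CPM. The part of these cells in the cerebellar differences was not tested.

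In the pons ADAM28 had the largest log2 change, 4.09, on low and uneven values of 0.868, 2.06, 0.139, 0.380 and 0.270 CPM beside at most 0.236 CPM elsewhere. ADAMTS4, which is made by oligodendrocytes in the adult brain, stood at 30.2, 29.4, 17.7, 13.8 and 68.3 CPM in the pons, beside 1.34 to 26.9 CPM in the other regions, a log2 change of 2.42 ± 0.29 (edgeR adjusted p = 2.99e-09). ADAMTS12, ADAMTS9 and ADAMTS20 were higher there by 1.86, 1.76 and 1.68. ADAMTS19 was lowest in pons against the other regions, at -1.83, followed by ADAM11 at -1.62. The 5 oligodendrocyte genes summed to 15258 to 75618 CPM in pons. This overlapped basal ganglia (5017 to 17243 CPM) and motor cortex (3117 to 27606 CPM) and lay above cerebellum (1103 to 6881 CPM). The 5 astrocyte genes also set the pons apart, at 13134 to 18184 CPM beside at most 11039 CPM elsewhere, in entorhinal cortex. The part of oligodendrocytes and astrocytes in the pons differences, that of ADAMTS4 among them, was not tested.

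ADAMTS3 changed with region more often than any other member, with calls in 4 of them. In basal ganglia it stood at 15.7, 18.5, 12.6, 26.1 and 19.0 CPM beside 0.692 to 18.5 CPM elsewhere (log2 change 2.60 ± 0.25; edgeR adjusted p = 2.10e-11). In hippocampus it stood at 18.5, 10.6, 10.3 and 15.1 CPM in 4 sheep and at 1.59 CPM in sheep 699 (1.80). It was lower in cerebellum (-1.98) and in posterior parietal cortex, at 1.10 to 2.61 CPM (-1.32; not called without sheep 688, 690 or 694). In basal ganglia ADAM23 was higher, at 134, 120, 107, 214 and 178 CPM (1.19), ADAMTS2 lower, at 0.391 to 0.605 CPM (-1.75), and ADAMTS5, ADAM19 and ADAM11 lower, at -1.62, -1.44 and -1.32. In prefrontal cortex ADAMTS4 was lower, at 1.34 to 4.32 CPM (-1.80; not called without sheep 687).

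The term that compares sperm against brain between species was tested for all 33 shared members, for which the counts of a sheep's 10 regions were added up to stand beside the whole rat brains. It was more positive in sheep for 9 members, beside 23.9% of all genes, and more positive in rat for 6, beside 38.4%. The median term was 0.80 among members and -0.69 among all genes. Other scalings moved the median of all genes by 0.91 with DESeq2's size factors within edgeR (RLE), by 0.75 with upper quartile factors and by 1.10 with DESeq2 itself. Under each scaling 2 members were then more positive in rat, and without sheep 688 or without sheep 690 there were 3. Of all 15172 genes tested, 5827 were more positive in rat, 3978 with RLE and 4376 with upper quartile factors. With DESeq2 these were 4105 of 15644, so the member count moved with that of all genes. No count of all genes is given for the fits without 1 sheep.

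ADAM8 differed most, with a term of 9.66 ± 1.01 (edgeR adjusted p = 1.04e-10): it was higher in sperm than in brain in sheep, at 8.65, and lower in rat, at -1.10. ADAM19, with a term of 6.15, and ADAMTS10, with 4.45, also changed in opposite directions, higher in sheep and lower in rat. On plain library totals, however, neither ADAM19 nor ADAMTS10 was called higher in sheep. The neutrophil list summed to 16.0 to 93.2 CPM in rat sperm and to 12798 to 141430 CPM in sheep sperm; its part in these terms was not tested. Members that were lower in sperm in both species but less so in sheep were ADAM22 (3.72), ADAMTS3 (3.94, and 2.64 and not called without sheep 694), ADAMTS8 (4.50) and ADAMTS18 (5.34, and -2.02 without sheep 690). ADAMTS20 and ADAMTS6, lower in rat and not called in sheep, had terms of 3.72 and 3.35. With the animal as a block, ADAMTS18 (5.06) and ADAM33 (-3.71) were not called.

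In the other direction ADAMTS13 had a term of -4.86 ± 0.82 (edgeR adjusted p = 2.66e-06), with a log2 change of 3.57 in rat and -1.07 in sheep, where sperm held 5 counts. ADAM33, ADAMTS9, ADAMTS17, ADAM17 and ADAM11 had terms of -3.27, -2.82, -1.80, -1.5 and -1.47. Leaving out 1 sheep moved several of these: ADAM33 ran from -2.75 to -10.68 (without sheep 699, which held all 7 of its sperm counts), ADAMTS17 from -1.42 (without 688) to -2.73 (without 687) and ADAM11 from -0.91 (without 687) to -2.89 (without 694). ADAM33 was called without sheep 699 alone, ADAMTS17 without 687 alone and ADAM11 without 694 alone. ADAM9 and ADAMTS12 were called higher in sperm in both species, with terms of 0.16 ± 0.47 and 0.19 ± 0.77 that were not called, although ADAMTS12 was not higher in sheep on plain library totals. In all, 11 members were called lower in both species, among them the 3 LGI-binding ADAMs, ADAMTS1 and ADAMTS4. No share of all genes lower in both is given here. Singly, 31.5% of rat and 41.1% of sheep genes tested were lower, so this count only describes the members.

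**Figure D5:**
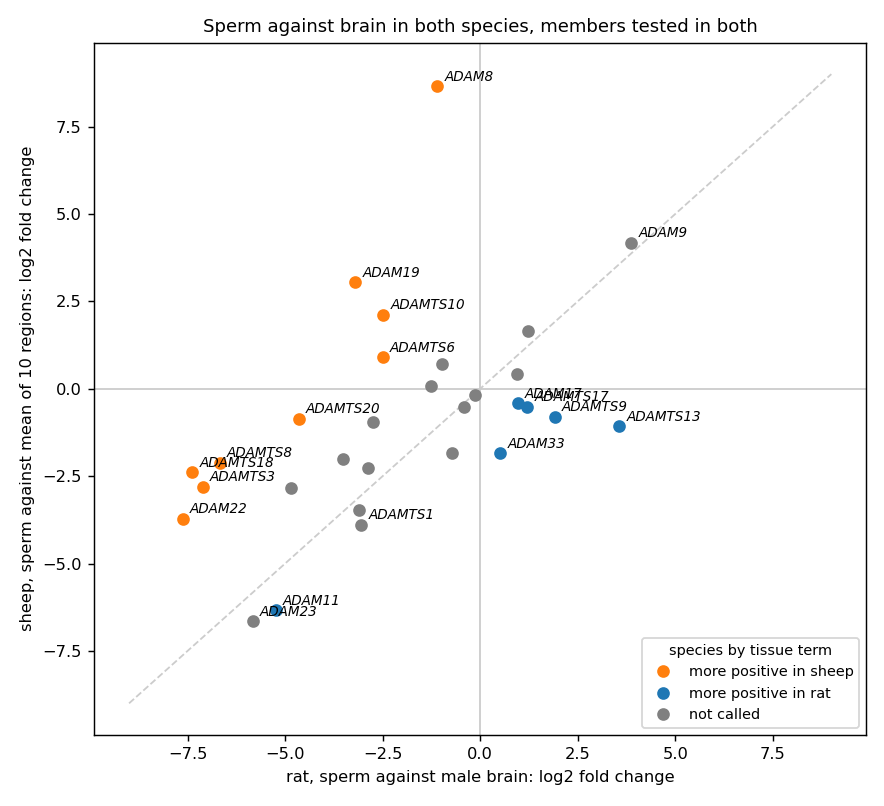
Log2 fold change of sperm against brain in sheep (vertical) against that in rat (horizontal) for the members tested in both, 1 point per gene, coloured by the species by tissue term, with a dashed line where both are equal. ADAM9 lies at the upper right near the line, ADAM11 and ADAM23 at the lower left near the line, and ADAM8, ADAM19 and ADAMTS10 at the upper left, higher in sheep sperm and lower in rat sperm.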

How the data were processed

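Gene counts of 55 sheep and 58 rat libraries were used as the authors deposited them, in 1 table per species with 31304 and 38675 genes. Per the submitters' processing notes, bcl2fastq 2.20, Trimmomatic 0.39, STAR 2.7.5a, an R environment 4.4.2 and Rsubread 2.20.0 were used, with the GRCr8 build for rat. The strand setting of the counting is not given in the sources used here, so reads of a member and of an overlapping or antisense gene cannot be told apart; 25 rat members overlap another annotated gene. No pair of libraries held identical counts.

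The tool for testing was edgeR 4.0.16 under R 4.3.3 (quasi-likelihood test, TMM factors, filterByExpr by group, prior count 0.125) over all genes of a comparison with Benjamini-Hochberg adjustment, with calls where the adjusted p was below 0.05 beside a log2 change of at least 1 in either direction. Standard errors were computed back from the log2 change and the F statistic of its test. Sheep regions were fitted together, and the species term used 15703 symbols that occur once in each table. The fit was tested on simulated data. Level ranges used pandas 2.3.3, numpy 2.4.6 and scipy 1.17.1, figures matplotlib 3.10.9.

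Samples of the same number come from the same animal and so are paired. Their deviations from the group means, over genes averaging at least 1 CPM, correlated at -0.097 to 0.270 in rat sperm and brain (4 of 15 pairs above 0.1), at -0.196 to 0.125 in ovary and brain (1 of 14) and at 0.053 to 0.142 in sheep sperm and brain (1 of 5).

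Alternatives were RLE and upper quartile factors, no low-count filter, DESeq2 1.42.0, limma 3.58.1 voom, the animal as a block, regions summed per sheep, each sheep left out, and rat sperm libraries 16 and 17 left out. Chosen after seeing the data were plain library totals, rat sperm libraries 3, 7, 13 and 14 left out, and rat brain libraries 1, 4 and 22 left out. The members and lists were chosen with earlier results of these data known. Named by rule were the 6 called members per direction with the largest log2 change whose higher group averaged at least 1 CPM, per sheep region the 2 with the largest change, and ADAM2, ADAM7, ADAM28, ADAM9, ADAM10, ADAM17, ADAM11, ADAM22, ADAM23, ADAMTS1, ADAMTS4, ADAMTS5 and ADAMTS20; other members were named after their values were seen. Promoter windows and positions are from RefSeq on GRCr8, where all 49 rat members were matched by symbol; positions in sheep were not analysed here. Transcript lengths were not used, so levels are not compared between genes.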

Additional observations from a re-analysis of the deposited data

Results flagged for a closer look

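In the 5 sheep sperm libraries, 5 of 26 member sets held a library farther from the others than Dixon's 95% limit allows. Sheep 694 was the high library in 4 of them, at 499 CPM for ADAM8, 13.4 CPM for ADAM22, 3.16 CPM for ADAMTS5 and 0.987 CPM for ADAMTS19. Sheep 688 was the high library for ADAM28, at 150 CPM.

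The change from brain to sperm differed between the species by the interaction term of edgeR in 15 members. It was more positive in sheep for ADAM8 (9.66 on the log2 scale), ADAM19 (6.15), ADAMTS18 (5.34), ADAMTS8 (4.50), ADAMTS10 (4.45), ADAMTS3 (3.94), ADAMTS20 (3.72), ADAM22 (3.72) and ADAMTS6 (3.35). It was more positive in rat for ADAMTS13 (-4.86), ADAM33 (-3.27), ADAMTS9 (-2.82), ADAMTS17 (-1.80), ADAM17 (-1.5) and ADAM11 (-1.47). Species and preparation cannot be told apart in these terms.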

How the results depend on the processing

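In rat sperm against male brain, members called higher went from 11 to 24 without the low-count filter (which tests more genes), 19 with DESeq2 and 5 with the replicate block. With that block, which uses the pairing by animal, ADAM4 turned to -0.44 on the log2 scale. Without rat sperm libraries 3, 7, 13 and 14, ADAM4 stood at -1.25 and ADAM4L1 at -0.72. In rat ovary against sperm, members lower went from 11 to 23 without the filter and 22 with DESeq2. In sheep sperm against brain, plain library totals gave 3 higher in place of 6 and 25 lower in place of 13, and of single genes the results for ADAMTS10, sheep sperm against mean of sheep brain regions, and ADAMTS12, sheep sperm against mean of sheep brain regions, turned to -0.60 and -0.65; voom with quality weights gave 5 lower and regions summed per sheep 8. Leaving out each sheep gave 5 to 7 higher and 13 to 15 lower. For the species term, members more positive in sheep went from 9 to 15 with DESeq2, and those more positive in rat from 6 to 2 with RLE factors, 2 with upper quartile factors and 2 with DESeq2, and to 3 to 6 when each sheep was left out; ADAMTS18 then ranged from -2.02 (without sheep 690) to 6.02. Beyond the filter, the cause was not tested. The remaining 117 recomputed counts stayed within 1.5 times the reported ones, and of the recomputed single-gene values 994 kept their direction and call, 49 lost the call, 27 gained it and 6 turned. ADAM17 in rat sperm gained it without libraries 16 and 17 (1.04). Among all genes, the median shifted by -0.25 (RLE factors), 0.42 (no filter) and -0.32 (plain totals) in rat sperm against brain, by 0.25, 0.73 (upper quartile) and 1.47 (DESeq2) in sheep sperm, by 0.31 (plain totals) in ovary against sperm and by 0.28 in ovary against brain. Genes higher and lower in sheep sperm numbered 7239 and 8976, 8907 and 6980 with upper quartile factors, and 3249 and 15084 on plain library totals. In rat sperm against male brain they numbered 5663 and 6448, and 12974 and 9093 without the filter. With DESeq2 they numbered 8622 and 9805 there, and with the block 4384 and 7541. In ovary against sperm 4491 of all genes were lower, 12566 without the filter and 8935 with DESeq2. For the species term 3619 of all genes were more positive in sheep, and 5530 with DESeq2. Few counts limit members near 0, such as ADAMTS18 in sheep sperm.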
